A study of Homo sapiens with 6 samples.

Results

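The genes described here are 48 genes of the type I interferon response, chosen by symbol: the receptor and its kinases, the transcription factors that act after them, and genes that interferon is known to switch on. All 48 symbols were found among the 58870 genes of the count table. The choice used symbols and no measured value, but it was made with earlier results of these data known. RNA was sequenced from WM164, an established human melanoma cell line grown in RPMI medium with serum and antibiotics, in 3 libraries overexpressing green fluorescent protein (GFP) and 3 overexpressing T-MGM, in which the transcription factors MITF (melanocytic isoform) and MAFG are fused through a flexible linker. Both proteins were delivered with a lentiviral vector that carries the EF1α promoter and blasticidin resistance, so the control cells share the vector and the selection marker. The study asked how gene expression responds when the MAFG and MITF pair is forced together. The sources used here name no interferon treatment of either group.

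Type I interferons are secreted proteins that bind the receptor made of IFNAR1 and IFNAR2. The receptor-bound kinases JAK1 and TYK2 then activate STAT proteins, and STAT2 joins IRF9 in a complex that binds the interferon-stimulated response element (ISRE) in the promoters of its target genes. The targets encode proteins that sense or degrade foreign RNA, block viral entry and release, conjugate the ubiquitin-like protein ISG15, or restrain cell growth. Many of them are also expressed at a low level in unstimulated tumour cells.

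The promoters are described first, because the ISRE is the element that the complex of STAT2 and IRF9 binds. The RefSeq promoter table (GRCh38.p14), with 250 bases before and 50 bases after each start, held 52 promoters for 38 of the 48 genes, some with several starts whose windows can overlap. IFNAR2, IRF7, IFIT2, IFITM2, MX2, OAS2, OASL, DHX58, USP18 and TRIM22 had no entry. The ISRE core, searched as GAAANNGAAA on both strands, was present in 53.8% of the 52 promoters and in 3.57% of all 35116 promoters in the table. Stretches around it are shown for 9 genes, 5 whose RNA was lower in the T-MGM libraries (IFIT1, ISG20, SAMD9, HERC5 and IFI6), 1 that was higher (LGALS3BP) and 3 that did not pass the test (IFIT5, ISG15 and IFITM3), because they let the same element be compared across the 3 outcomes. They were chosen after the values were seen. They run 5′ to 3′ on the strand of the gene, and capitals mark the matches, read as the reverse complement where the core lies on the other strand. Matches that overlap are joined.
IFIT1, chr10:89392495-89392541, plus strand: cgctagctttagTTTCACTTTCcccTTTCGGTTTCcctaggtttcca
ISG20, chr15:88638935-88638968, plus strand: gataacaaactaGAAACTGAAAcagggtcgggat
SAMD9, chr7:93118094-93118127, minus strand: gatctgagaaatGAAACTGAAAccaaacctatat
HERC5, chr4:88456982-88457066, plus strand: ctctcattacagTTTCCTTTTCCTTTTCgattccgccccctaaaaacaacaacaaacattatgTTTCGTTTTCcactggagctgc
IFI6, chr1:27672264-27672360, minus strand: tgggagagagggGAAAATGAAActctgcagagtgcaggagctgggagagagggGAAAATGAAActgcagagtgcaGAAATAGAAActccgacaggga
LGALS3BP, chr17:78979960-78979993, minus strand: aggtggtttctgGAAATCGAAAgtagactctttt
IFIT5, chr10:89414511-89414567, plus strand: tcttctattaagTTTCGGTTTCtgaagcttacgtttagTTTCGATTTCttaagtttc
ISG15, chr1:1013372-1013411, plus strand: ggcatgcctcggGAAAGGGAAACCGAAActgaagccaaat
IFITM3, chr11:320874-320924, minus strand: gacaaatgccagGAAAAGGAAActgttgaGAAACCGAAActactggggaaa

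IFIT1 and IFIT5, which lie next to each other on chromosome 10, held 2 and 3 matches, and the last of IFIT5 crosses the start, beyond the printed stretch. ISG15 and IFITM3 held 2 each, and HERC5 and IFI6 held 3 each. Counted over genes with a promoter entry, the core was found in 12 of 14 lower genes (all but OAS1 and SP100). It was found in 1 of 6 higher genes (LGALS3BP) and in 9 of 15 that did not pass. No match was found in the searched windows of IRF9, STAT2, SAMD9L, IFI35 or TRIM25. The higher genes IRF7, IFITM2 and DHX58 had no entry and were not searched. IRF7 and IFITM2 were the only higher genes that kept their call under every processing setting. The windows of PARP9 and DTX3L overlap on opposite strands. With the annotated start of DTX3L (122564338), its match covers the same bases as that of PARP9, so the same site is then counted for both genes. The E-box CACGTG, a site of the MITF family, was in 11.5% of the members' promoters and 7.26% of all promoters. The second E-box searched, CATGTG, was in 7.69% and 11.1%. TGCTGA, a part of the sites that MAF proteins bind, was in 26.9% and 17.3%. These shares describe letters in a 300-base window, and binding was not measured here.

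Of the 48 genes, 44 received an adjusted p from DESeq2, whose model was fitted over the whole table. At an adjusted p of 0.05 or under, 15 were lower and 9 were higher in the libraries labelled T-MGM, and 20 did not pass. The lower genes made up 34.1% of those tested, where 19.2% of all 19135 tested genes were lower. The higher genes made up 20.5%, against a background of 19.2%, which is close to it. Among genes with a mean normalized count of 50 or more, the shares were 40.5% lower and 24.3% higher for 37 of these genes, and 27.6% and 26.4% for all genes at that level. With total counts as the scaling, 19 of 44 tested were lower and 6 higher. The TPM values (scaled for transcript length and depth) with a pseudocount of 1 gave 17 lower and 2 higher of 38 tested. All tested genes shifted down too, with median log2 fold changes of -0.06 and -0.12. Their shares called under these settings were not counted.

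Changes over 2-fold were few: IFIT2 and IFI44 were lower, 4.55% of those tested against a background of 1.36%, and IFITM2 and SAMD9L were higher, 4.55% against 3.26%. IFIT2, IFI44 and SAMD9L lay near the threshold, with log2 fold changes of -1.01, -1.02 and 1.02. The count of lower genes over 2-fold was 1 without GFP 2 or without GFP 3, 0 without T-MGM 1 and 3 without T-MGM 3, and that of higher genes was 1 without GFP 2, T-MGM 2 or T-MGM 3. The 3 libraries of each group were fully separated in 17 lower genes (38.6%, background 23.4%) and 9 higher genes (20.5%, background 23.4%). The median log2 fold change, T-MGM over GFP, was -0.08 over the 44 tested genes and -0.00 over all tested genes. In bulk RNA a lower value can stand for less RNA per cell or for fewer cells that express the gene, which cannot be told apart.

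**Figure D1:**
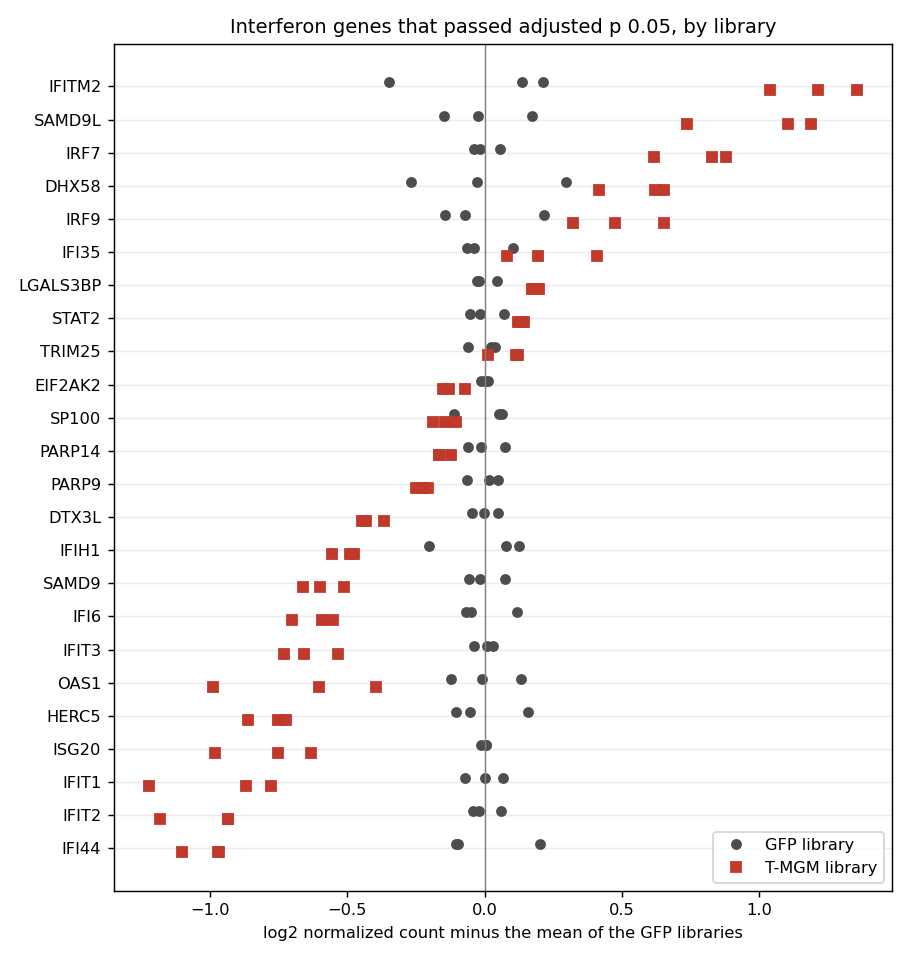
Each gene that passed an adjusted p of 0.05, with the log2 normalized count of each library minus the mean of the GFP libraries on the x axis (circles, GFP; squares, T-MGM; 3 libraries each). The 15 lower genes lie left and the 9 higher genes right, and the groups overlap in SP100, IFI35 and TRIM25; in the TPM values STAT2, IFI35 and TRIM25 turn to just below 0, and EIF2AK2 turns to just above 0 after the GC correction.

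The level of most of these genes was low, as shown by the plot of the mean TPM of the groups. In the GFP libraries 14 genes were at or over 10 TPM, 22 were from 1 to under 10, and 12 were under 1. IFITM3, a membrane protein that blocks fusion of entering viruses, was the most abundant at 239.7 ± 10.6 TPM in GFP and 224 ± 6.38 TPM in T-MGM (SD, n = 3 each). LGALS3BP, a secreted galectin-binding glycoprotein, followed at 199.7 TPM in GFP and 203 TPM in T-MGM. The next, TYK2 and TRIM25, stood at 30.3 and 26.5 TPM in GFP. RSAD2, XAF1, TRIM22 and EPSTI1 had no adjusted p: EPSTI1 had 0 counts in all 6 libraries, and the raw counts of the other 3 genes did not exceed 6 in any library.

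**Figure D2:**
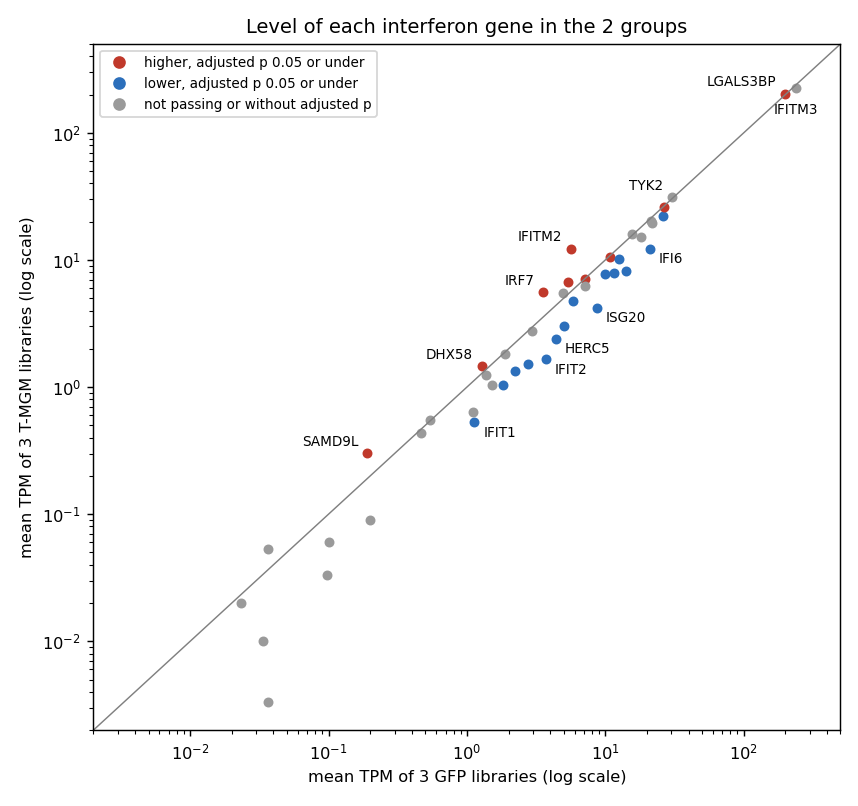
Mean TPM of the 3 GFP libraries (x axis) and of the 3 T-MGM libraries (y axis), both on log scales, with the line of equal levels and 12 genes labelled; RSAD2 and EPSTI1, with a mean of 0 in T-MGM, are not drawn. IFITM3 and LGALS3BP stand apart at over 199 TPM, and IFIT1, IFIT2, HERC5, ISG20 and IFI6 lie below the line.

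The 2 receptor chains and 2 kinases did not pass in the main DESeq2 fit or in edgeR. IFNAR1 had 3715, 3657 and 3597 normalized counts in GFP 1 to 3 and 3322, 3436 and 3752 in T-MGM 1 to 3. T-MGM 3 was the highest of all 6 libraries, the groups overlapped, and the log2 fold change was -0.06 (SE 0.04, adjusted p 0.24, DESeq2). IFNAR2 had 1433, 1282 and 1424 in GFP, against 1436, 1543 and 1504 in T-MGM. These groups did not overlap, yet the difference of 0.12 (SE 0.05) did not pass (adjusted p 0.0778, DESeq2). JAK1 and TYK2 had log2 fold changes of 0.05 and 0.04, with 95% limits of 0.996 to 1.08-fold and 0.963 to 1.10-fold. The limits of IFNAR2, which are not adjusted for the number of genes, were 1.01 to 1.17-fold. After correction for GC content and length IFNAR2 and JAK1 passed, at 0.15 and 0.09 (adjusted p 0.0205 and 0.0076, DESeq2), and JAK1 also did without GFP 3 (0.08, adjusted p 0.0489, DESeq2). IFNAR1 passed as lower without T-MGM 3 and with total counts as the scaling (-0.11 in each, adjusted p 0.0102 and 0.00979, DESeq2), and in the TPM values with a pseudocount of 1 (-0.23, limma adjusted p of 0.0139).

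Of the 4 transcription factors, 3 were higher, where 19.2% of all tested genes were. IRF7, the factor that drives transcription of interferon genes themselves (chromosome 11, 612553 to 615983), had 252, 265 and 248 normalized counts in GFP, against 391, 469 and 452 in T-MGM. The groups were far apart, and even T-MGM 1, the lowest of its group, stood well above GFP 2. IRF7 rose by 0.78 on the log2 scale (SE 0.11, adjusted p 2.07e-11, DESeq2). Over 5 Mb on either side its 54 measured neighbours had a median log2 fold change of 0.11.

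IRF9, which gives the ISRE-binding complex its contact with DNA, had 162, 208 and 170.2 normalized counts in GFP, against 224, 249 and 282 in T-MGM, without overlap (log2 fold change 0.48, SE 0.15, adjusted p 0.00317, DESeq2). GFP 2 and T-MGM 1 came close to each other, and without T-MGM 3 the adjusted p was 0.061. IRF9 also lost its call in the TPM values with a pseudocount of 1 (0.27, limma adjusted p of 0.144). The GC and length correction with the replicate block ended it too (0.40, adjusted p 0.0763, DESeq2). Another annotated gene, ENSG00000259529, shares its locus on the same strand and had a log2 fold change of -0.05. STAT2, the partner of IRF9, had 1138, 1168 and 1243 in GFP, against 1305, 1287 and 1300 in T-MGM. Its T-MGM libraries were nearly equal and all lay above the GFP libraries. The difference was 0.13 (SE 0.05, adjusted p 0.0381, DESeq2), it was -0.01 in the TPM values with a pseudocount of 1, and leaving out GFP 1, GFP 2 or any T-MGM library ended the call (adjusted p 0.0749 to 0.188, DESeq2). IRF1 did not pass (0.07, adjusted p 0.646, DESeq2).

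Of 12 genes of RNA sensing and RNA decay, 7 were lower, 1 was higher and 4 did not pass, where 19.2% of all tested genes were lower and 19.2% higher. The IFIT genes, which encode proteins that bind foreign RNA ends and hold back their translation, lie side by side on the plus strand of chromosome 10. IFIT2 (ENSG00000119922; chromosome 10, 89283694 to 89309271) had 608, 642 and 599 normalized counts in GFP, against 271, 322 and 322 in T-MGM. All T-MGM libraries lay well below the controls, and T-MGM 1 was the lowest. IFIT2 fell by 1.01 on the log2 scale (SE 0.10, adjusted p 4.87e-25, DESeq2). IFIT3 (89327307 to 89377473), a partner that stabilises IFIT1, had 1557, 1608 and 1632 in GFP, against 963, 1105 and 1014 in T-MGM. Here too no T-MGM library reached the lowest GFP library. IFIT3 fell by 0.64 (SE 0.06, adjusted p 1.46e-28, DESeq2), the smallest adjusted p of the 48 genes.

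IFIT1 (ENSG00000185745; chromosome 10, 89392546 to 89406487), which recognises RNA caps without the host's ribose methylation, had 229, 252 and 241 normalized counts in GFP, against 103, 132 and 140.2 in T-MGM. The lowest GFP library was well above the highest T-MGM library. IFIT1 fell by 0.94 (SE 0.15, adjusted p 5.53e-09, DESeq2). IFIT5 (89414568 to 89421605), the next gene along, averaged 590.3 ± 24.8 in GFP and 607 ± 43.2 in T-MGM (SD, n = 3 each) and did not pass (0.04, adjusted p 0.766, DESeq2), although after correction for GC content and length it was higher by 0.20 (adjusted p 0.0377, DESeq2). Its 95% limits of 0.92 to 1.15-fold lie above those of IFIT1, 0.423 to 0.641-fold. LIPA, which the annotation places on the opposite strand over IFIT2 and IFIT3 but not over IFIT1, went from 1530 to 1179 normalized counts (log2 fold change -0.37, SE 0.05, adjusted p 7.72e-11, DESeq2), and how reads at that locus were shared out was not tested. The 37 genes measured within 5 Mb of IFIT1 had a median of -0.12.

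ISG20, an RNA exonuclease, had 472, 479 and 479 normalized counts in GFP, against 283, 307 and 241 in T-MGM. The GFP libraries were almost equal and the T-MGM libraries spread below them. ISG20 fell by 0.79 (SE 0.11, adjusted p 1.5e-12, DESeq2). OAS1, an enzyme that answers double-stranded RNA by making the oligoadenylate activator of RNase L, had 349, 385 and 323 in GFP, against 177, 231 and 267 in T-MGM. T-MGM 3 was the nearest to the GFP libraries but did not reach them. OAS1 fell by 0.64 (SE 0.14, adjusted p 1.51e-05, DESeq2), while its neighbour OAS3 went from 2018 to 1892 (-0.09, adjusted p 0.077, DESeq2) without overlap, and passed at -0.14 after the GC correction (adjusted p 0.00337, DESeq2).

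IFIH1 and EIF2AK2 were lower and DHX58, also a sensor of double-stranded RNA, was higher, and none of these calls held under every processing setting. IFIH1 (also MDA5), a sensor of long duplexes, had 229, 188 and 236 normalized counts in GFP, against 154, 156 and 148 in T-MGM. The T-MGM libraries were close to each other and all below GFP 2, the lowest control. IFIH1 fell by 0.51 (SE 0.15, adjusted p 0.00179, DESeq2), and the GC correction together with the replicate block ended the call (-0.44, adjusted p 0.0663, DESeq2). DHX58 (also LGP2), a helicase that assists IFIH1, had 76.8, 65.0 and 96.0 in GFP, against 120.4, 104 and 123 in T-MGM, so that T-MGM 2 stood just above GFP 3. It was higher by 0.55 (SE 0.21, adjusted p 0.0236, DESeq2), and the adjusted p was 0.0767 to 0.161 when GFP 1, GFP 2, T-MGM 1 or T-MGM 3 was left out. Its call was also lost with the replicate block, in the TPM values, and after the GC and length correction (0.45, adjusted p 0.0847, DESeq2). EIF2AK2, the kinase PKR that stops translation on sensing duplex RNA, had 5147, 5103 and 5052 in GFP, against 4656, 4853 and 4586 in T-MGM. All T-MGM libraries were lower, by a small margin (-0.12, SE 0.03, adjusted p 0.000115, DESeq2), but after correction for GC content and length the difference was 0.03 (adjusted p 0.558, DESeq2).

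**Figure D3:**
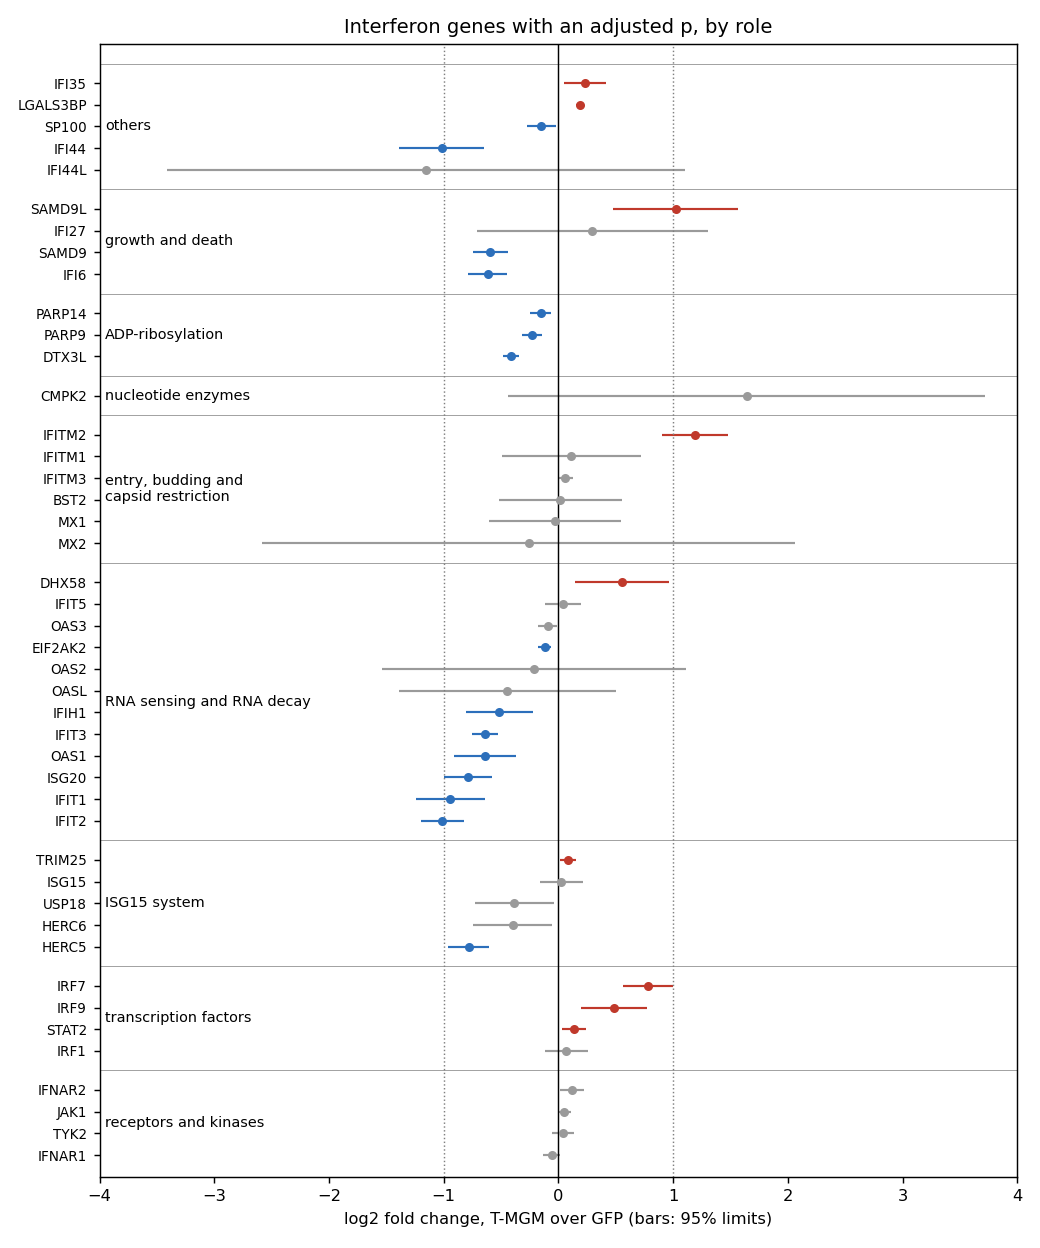
Log2 fold change, T-MGM over GFP, of the 44 genes with an adjusted p, grouped by role; bars are 95% limits from the SE of DESeq2, red and blue points passed an adjusted p of 0.05 (higher and lower), grey did not, and dotted lines mark 2-fold. Blue points number 7 of 12 under RNA sensing and RNA decay and 3 of 3 under ADP-ribosylation, where 19.2% of all tested genes were lower, and no receptor or kinase passed in this fit; STAT2, IFI35 and TRIM25 change sign in the TPM values, and EIF2AK2 after the GC correction.

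In the ISG15 system the modifier itself did not pass and its main ligase was lower. ISG15, the ubiquitin-like protein that is attached to others, had 478, 507 and 479.7 normalized counts in GFP, against 474, 568 and 452 in T-MGM. The T-MGM libraries lay on both sides of the controls, with a log2 fold change of 0.02 (SE 0.10, adjusted p 0.883, DESeq2) and 95% limits of 0.892 to 1.16-fold. HERC5, the ligase that attaches ISG15 (chromosome 4, 88457119 to 88506163), had 645, 775 and 669 in GFP, against 412, 382 and 421 in T-MGM. GFP 2 was the highest and every T-MGM library lay far below the controls. HERC5 fell by 0.78 (SE 0.09, adjusted p 4.71e-17, DESeq2). The adjacent HERC6 and the ISG15 protease USP18 had differences of -0.40 and -0.38 without overlap, and did not pass (adjusted p 0.0559 and 0.0727, DESeq2). Both passed with total counts as the scaling (-0.45 and -0.44, adjusted p 0.0265 and 0.0351, DESeq2) and in the TPM values with a pseudocount of 1 (limma adjusted p of 0.0347 and 0.0468), and HERC6 also without T-MGM 2 (-0.54, adjusted p 0.0207, DESeq2).

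TRIM25, a ubiquitin ligase that acts on the RNA sensor RIG-I, had 4210, 3974 and 4262 normalized counts in GFP, against 4187, 4489 and 4517 in T-MGM. T-MGM 1 lay among the controls. The difference of 0.09 (SE 0.03, adjusted p 0.0363, DESeq2) was -0.01 in the TPM values, and without GFP 1, GFP 2, T-MGM 2 or T-MGM 3 the adjusted p was 0.0505 to 0.292. DGKE and C17orf67 overlap TRIM25 in the annotation and were higher by 2.0 and 2.59, from mean counts of 17.6 and 9.15 in GFP to 70.1 and 54.9 in T-MGM.

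Among the genes that restrict viral entry, budding and capsids, only IFITM2 passed, of 6 tested. IFITM2 (ENSG00000185201; chromosome 11, 303655 to 309397), an endosomal membrane protein that blocks viral fusion, had 163, 172 and 116 normalized counts in GFP, against 306, 380.5 and 345 in T-MGM. Every T-MGM library was above the controls, and GFP 3 was the lowest of all. IFITM2 rose by 1.19 (SE 0.15, adjusted p 6.28e-15, DESeq2), from 5.69 to 12.3 TPM. IFITM3, at 319676 to 329475 on the same chromosome, went from 4980 ± 237 to 5197 ± 159 (SD, n = 3 each), a difference of 0.06 (adjusted p 0.129, DESeq2), and IFITM1 had 0.11 (adjusted p 0.833, DESeq2). After correction for GC content and length IFITM3 was lower by 0.10 (adjusted p 0.00619, DESeq2) and IFITM2 still higher by 1.06. The IFITM genes are close copies, and counts of uniquely aligned reads may be split between them unevenly. MX1, a GTPase that traps viral nucleocapsids, had 69.5, 61.7 and 58.3 in GFP, against 40.1, 54.6 and 89.3 in T-MGM. Its T-MGM libraries spread more widely than the controls and reached above and below them. BST2, a tether that holds budding virus at the cell surface, averaged 56.2 in GFP and 56.8 in T-MGM (0.02, adjusted p 0.972, DESeq2).

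All 3 genes of ADP-ribosylation were lower, beside the background of 19.2%. DTX3L, a ubiquitin ligase, and PARP9, the ADP-ribosyltransferase it works with, start next to each other on chromosome 3 and overlap on opposite strands (122564338 to 122575203 and 122527924 to 122564577). DTX3L had 3316, 3222 and 3440 normalized counts in GFP, against 2439, 2464 and 2581 in T-MGM. PARP9 had 2145, 2197 and 2033 in GFP, against 1785, 1814 and 1840 in T-MGM. In both genes the highest T-MGM library stayed below the lowest control. DTX3L fell by 0.41 (SE 0.04, adjusted p 2.29e-27, DESeq2) and PARP9 by 0.23 (SE 0.04, adjusted p 8.08e-07, DESeq2), while 50 measured genes within 5 Mb of them had a median of -0.13. PARP14, a mono-ADP-ribosyltransferase further along the chromosome, had 1790, 1963 and 1848 in GFP, against 1712, 1662 and 1661 in T-MGM. T-MGM 1 came near GFP 1, and the difference was -0.15 (SE 0.05, adjusted p 0.003, DESeq2), with an adjusted p of 0.0768 without GFP 2 and 0.141 after the GC correction.

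The neighbours SAMD9 and SAMD9L, related antiviral proteins that restrain translation and growth, went opposite ways. SAMD9 (chromosome 7, 93099513 to 93118023) had 728, 748 and 797 normalized counts in GFP, against 499.9, 531 and 478 in T-MGM. SAMD9L (93130056 to 93148385) had 42.0, 33.6 and 36.6 in GFP, against 62.0, 80.0 and 84.9 in T-MGM. The groups did not overlap in either gene. SAMD9 fell by 0.59 (SE 0.08, adjusted p 4.32e-13, DESeq2) and SAMD9L rose by 1.02 (SE 0.28, adjusted p 0.000896, DESeq2), from 0.19 to 0.303 TPM. At that low level the unfiltered TPM values with a pseudocount of 1 gave 0.13 for SAMD9L (limma adjusted p of 0.491). IFI6, a mitochondrial protein known to oppose cell death, had 709.9, 624 and 633 in GFP, against 402, 434 and 446 in T-MGM. GFP 1 was the highest, and no T-MGM library came near the controls. IFI6 fell by 0.61 (SE 0.09, adjusted p 1.38e-11, DESeq2).

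Of the other genes, IFI44 had 139.1, 138.6 and 171 normalized counts in GFP, against 69.3, 76.1 and 76.0 in T-MGM. The T-MGM libraries were close together and below all controls. IFI44 fell by 1.02 (SE 0.19, adjusted p 5.75e-07, DESeq2), and the call was lost in the TPM values without a filter (-0.57, limma adjusted p of 0.102). LGALS3BP had 17471, 16615 and 16711 in GFP, against 19255, 19079 and 19429 in T-MGM, a separation of the groups at a small difference of 0.19 (SE 0.02, adjusted p 2.52e-22, DESeq2). In the TPM values it was 0.03 and did not pass (limma adjusted p of 0.486). SP100, a protein of PML nuclear bodies, had 962, 1086 and 1078 in GFP, against 913, 968 and 940.1 in T-MGM. GFP 1 lay within the T-MGM range, and the difference of -0.15 (SE 0.06, adjusted p 0.049, DESeq2) gave an adjusted p of 0.0657 to 0.238 without GFP 2, GFP 3 or any T-MGM library. IFI35 had 555, 495 and 503 in GFP, against 687, 547 and 591 in T-MGM. T-MGM 2 lay below GFP 1, and the difference of 0.23 (SE 0.09, adjusted p 0.0318, DESeq2) was -0.03 in the TPM values and gave an adjusted p of 0.0552 to 0.31 without GFP 2, GFP 3, T-MGM 1 or T-MGM 3.

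The least abundant genes had too few counts for a narrow comparison. OASL, OAS2 and IFI27 averaged 21.6, 11.3 and 13.96 normalized counts in GFP, against 15.9, 9.86 and 17.2 in T-MGM, and their 95% limits of 0.381 to 1.42, 0.345 to 2.16 and 0.61 to 2.47-fold reach well to both sides of equality. MX2, IFI44L and CMPK2 averaged under 10 in both groups. CMPK2, a nucleotide kinase encoded next to RSAD2, had raw counts of 2, 2 and 2 in GFP, with 12, 3 and 10 in T-MGM, a difference of 1.64 that did not pass (adjusted p 0.239, DESeq2).

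Related genes were then compared within each library, since a ratio of counts in the same library needs no scaling between libraries. The 6 pairs were chosen after the values were seen, so the ratios describe them. The log2 ratio of IFIT1 to IFIT5 was -1.38, -1.28 and -1.22 in GFP, against -2.67, -2.12 and -2.08 in T-MGM. SAMD9 over SAMD9L was 4.12, 4.48 and 4.45 in GFP, against 3.01, 2.73 and 2.49 in T-MGM. IFITM2 over IFITM3 was -4.98, -4.89 and -5.34 in GFP, against -4.13, -3.73 and -3.91 in T-MGM. In these 3 pairs the groups stood apart, with differences of -0.996, -1.60 and 1.14. IFIT3 over IFIT5 and OAS1 over OAS3 differed by -0.68 and -0.57, also without overlap, and HERC5 over HERC6 by -0.37 with overlap.

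**Figure D4:**
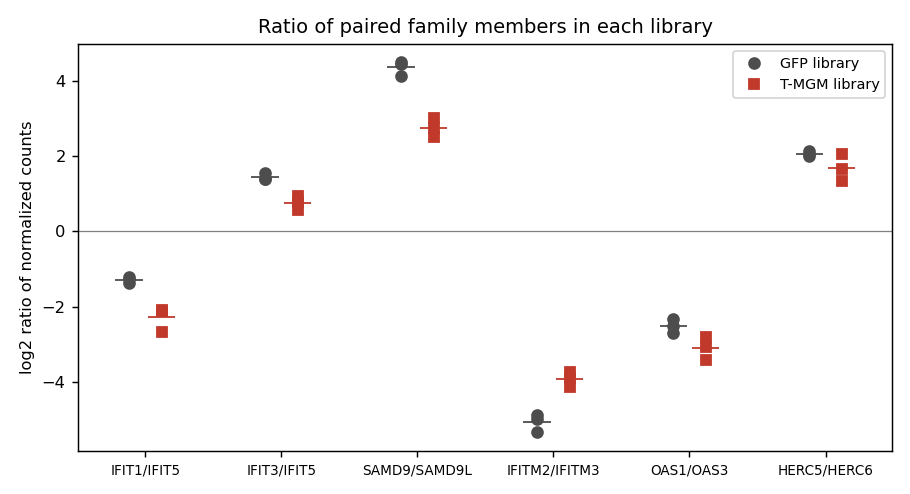
Log2 ratio of normalized counts of 2 related genes in each library (y axis) for 6 pairs (x axis), with circles for GFP, squares for T-MGM and short lines for group means. The groups stand apart in all pairs but HERC5/HERC6, and IFITM2/IFITM3 alone is higher in T-MGM.

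Genes around the pathway were described from lists drawn up from general knowledge, with earlier results of these data known. Interferon genes themselves were at the limit of counting: of 21 type I, II and III ligands, 20 had at most 3 counts in every library, IFNB1 had 0 in all 6, and the exception, IFNW1, had 4 counts in T-MGM 1. Of 11 tested genes that sense nucleic acids upstream of interferon, 2 were higher and 3 lower, counts near the background of 19.2% each way over all tested genes (26.4% and 27.6% at a mean normalized count of 50 or more). TBK1, the kinase that activates IRF3, fell by 0.39 (SE 0.06, adjusted p 1.29e-11, DESeq2), TMEM173 (also STING), the adaptor of DNA sensing, rose by 0.25, and MAVS, the adaptor of RNA sensing, fell by 0.08. Of 11 negative regulators, 2 were higher and 5 lower, beside the same background. The phosphatase PTPN1 went from 7189 to 5636 normalized counts (-0.35, adjusted p 6.62e-46, DESeq2) and PIAS3 fell by 0.44, while SOCS3, a feedback inhibitor of the kinases, rose by 0.60 (SE 0.10, adjusted p 2.59e-08, DESeq2).

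Of 42 other interferon-stimulated genes listed, 41 were found and all of these were tested, of which 15 were lower, 12 higher and 14 did not pass, with a median log2 fold change of -0.16. Over all genes with a mean normalized count of 50 or more, 27.6% were lower and 26.4% higher, and over all tested genes 19.2% each. Only 1 changed over 2-fold, BATF2, which was higher by 1.52 and is named here after its value was seen. IFI16, a nuclear DNA sensor, went from 10992 to 8613 normalized counts (-0.35, SE 0.02, adjusted p 1.37e-58, DESeq2). WARS, the tryptophan tRNA ligase, and LY6E, a membrane protein that restricts coronavirus entry, rose by 0.29 and 0.23 from 12461 and 13819. Of 8 tested genes of the interferon-gamma arm only the receptor chain IFNGR2 passed (-0.08, adjusted p 0.00884, DESeq2), IFNGR1 had 0.11 (adjusted p 0.251, DESeq2) and GBP2 0.37 (adjusted p 0.332, DESeq2).

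Facts of the libraries that stand beside these results are as follows. Total counts were 35057239 to 38738065 in GFP and 44577774 to 59250663 in T-MGM, a deeper sequencing of the T-MGM libraries, and the 48 genes took 0.152 to 0.153% and 0.144 to 0.147% of them. Mitochondrial genes took 10.7 to 10.9% and 11.7 to 12%. Of the construct's genes, MITF had a log2 fold change of 0.08 (adjusted p 4.8e-07, DESeq2) and MAFG one of -0.06, which did not pass (SE 0.04, adjusted p 0.236, DESeq2; 2535, 2397 and 2442 normalized counts in GFP, against 2396, 2351 and 2327 in T-MGM). In mean TPM both genes were lower in T-MGM, MITF at 138.4 in GFP and 132.5 in T-MGM, and MAFG at 9.88 and 8.48. A clear rise of either gene was thus not seen in these RNA values. Both differences are too small to check the labels, on which the directions given here rest. Of 8 melanocyte markers 7 were tested (TYRP1 was near 0). SOX10, MITF and PMEL were slightly higher in the counts, with log2 fold changes of 0.11, 0.08 and 0.05. Like MITF, SOX10 and PMEL were lower in mean TPM (416 and 252 in GFP, 402.6 and 237.1 in T-MGM). DCT was strongly lower at -2.49, from 11460 normalized counts in GFP to 2051 in T-MGM. MLANA, GPM6B and TYR were lower at -0.68, -0.62 and -0.35. The summed level of these markers was 119032 to 119796 normalized counts in GFP and 110175 to 112912 in T-MGM. Of the leukocyte markers 3 were tested, with CD68 higher by 0.45 and LYZ lower at -1.32, and PTPRC and CD3E had no more than 3 counts in any library. Fibroblast markers summed to 387 to 396 and 719 to 772 (LUM, PDGFRA and COL1A1 higher of 4 tested among 5). Endothelial markers summed to 22.8 to 41.1 and 34.7 to 50.7 with no call among 2 tested of 4, and epithelial ones to 2.17 to 6.0 and 2.21 to 4.56 with none of 4 tested. The part of these shifts in the interferon genes was not tested.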

How the data were processed

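WM164 libraries (3 GFP, 3 T-MGM; groups and replicate numbers from the titles) were read from tables in which the authors deposited raw counts of uniquely aligned reads per gene (cutadapt 1.8.1, STAR 2.7.7a, featureCounts, GRCh38) and TPM values (RSEM 1.3.0), rounded to 2 decimals. The annotation release is not given in the sources used here. The labels name a kit without strand information and the study's methods a stranded one, so counts of overlapping genes are uncertain. Separate cultures are not stated, and p-values measure the spread between these libraries, which may be technical.

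The counts were tested over all genes with DESeq2 1.42.0 in R 4.3.3 (group only, median-of-ratios size factors, 2-sided Wald test, no shrinkage, independent filtering at 0.05, Benjamini-Hochberg adjustment), the tool the methods name. Steps were tested on simulated data. Positions are from GENCODE 44, which holds 99.4% of the gene identifiers. Genes at 3 counts or fewer in every library were taken as at the floor, which covers counting error only.

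The members and lists were chosen with earlier results of these data known. Values per library are given for genes past 2-fold, then by Wald statistic to 20 in all, and for IFNAR1, IFNAR2, STAT2, IRF9 and ISG15; further lists name the 3 genes with the largest Wald statistic. The remaining called genes were added after their values were seen. Values per library of MX1 and CMPK2, which did not pass, are also given outside this rule. Alternatives were edgeR 4.0.16, TMM or total counts as scaling, a minimum of 10 counts in 3 libraries, the replicate number as a block, no independent filtering, GC and length offsets (lowess, span 0.3), shrinkage, each library left out, and limma 3.58.1 on log2 TPM. The summed level of the leukocyte markers is not reported here.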

Additional observations from a re-analysis of the deposited data

How the results depend on the processing

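Of the 15 lower genes, 10 (DTX3L, HERC5, IFI6, IFIT1, IFIT2, IFIT3, ISG20, OAS1, PARP9 and SAMD9), and of the 9 higher ones 2 (IFITM2 at 0.91 to 1.299 and IRF7 at 0.52 to 0.85 on the log2 scale) kept their direction and call in each of the 18 alternatives in which they were tested. The other 12 lost it in at least 1, with IFIH1, IFI44 and SAMD9L losing it in 1 each. The number of lower genes was 13 to 19 over all alternatives, and that of higher genes 2 to 9. The shares of all genes called were counted only in the main fit.

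Deviations of same-numbered libraries had r of -0.01, -0.06 and 0.03 over 12654 genes, and those of differently numbered ones -0.089 to 0.092. With 3 libraries per group, these values cannot decide whether same-numbered libraries were prepared together. With the replicate number as a block, 5 genes were higher and 14 lower, and SP100, IFI35, DHX58, TRIM25 and STAT2 lost their call. With the GC and length correction, 0 lower genes were over 2-fold (DESeq2; IFIT2 was at -0.91 and IFI44 at -0.90), and with the block added 4 genes were higher and 13 lower, of which 2 and 0 were over 2-fold. Total counts as scaling moved the median of the 44 genes to -0.13, where that of all genes was -0.06, and left 1 higher gene over 2-fold. In the TPM values the median of all genes was -0.12 with a pseudocount of 1 and -0.15 with 0.1. There 2 genes were higher under each setting, with 0 over 2-fold in either direction at a pseudocount of 1, with or without a filter, and 1 higher over 2-fold at 0.1. The medians of the tested members were -0.16 and -0.18. Shrunken fold changes left 0 over 2-fold in either direction and a median of -0.021. Leaving out each library gave 4 to 9 higher, 13 to 15 lower, 1 to 2 higher over 2-fold, 0 to 3 lower over 2-fold and a median of -0.091 to -0.049.

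Signs turned in 65 values of 16 genes. After the GC and length correction, log2 fold changes were 0.035 for IFNAR1, 0.025 for EIF2AK2, -0.086 for TYK2, -0.17 for ISG15, -0.011 for IFITM1, -0.097 for IFITM3 and -0.12 for BST2, and with the block 0.032, 0.026, -0.086, -0.17, -0.023, -0.096 and -0.092 in the same order. In the TPM values with a pseudocount of 1, with or without a filter, they were -0.078 for JAK1, -0.079 for IFIT5, -0.013 for STAT2, -0.014 for TRIM25, -0.15 for ISG15, -0.041 for IFI27, -0.035 for IFITM1, -0.025 for IFI35, -0.095 for IFITM3, 0.0016 for MX1 and -0.066 for BST2. With 0.1 they were -0.082 for JAK1, -0.10 for IFIT5, -0.015 for STAT2, -0.014 for TRIM25, -0.15 for ISG15, -0.14 for IFI27, -0.059 for IFITM1, -0.028 for IFI35, -0.095 for IFITM3 and -0.097 for BST2. With total counts they were -0.0032 for JAK1, -0.012 for TYK2, -0.013 for IFIT5, -0.029 for ISG15 and -0.035 for BST2. With each library left out, BST2 ranged from -0.15 to 0.25, IFIT5 from -0.018 to 0.079, IFITM1 from -0.088 to 0.30, ISG15 from -0.076 to 0.093, MX1 from -0.42 to 0.20, MX2 from -0.73 to 0.31 and OAS2 from -0.57 to 0.13. The cause was not tested. Low counts limit RSAD2, XAF1, TRIM22, EPSTI1, MX2, IFI44L and CMPK2, for which these counts cannot show a difference of moderate size.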
